A study of Homo sapiens with 8 samples.

Results

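In this RNA-seq series, 63 of 57905 annotated genes were expressed in LNCaP prostate cancer cells and silent in EnzaR cells. Expressed meant at least 2 FPKM (the authors' read count scaled to exonic length and library total) and at least 50 raw counts in each of the 4 LNCaP libraries, and silent meant at most 0.3 FPKM in each of the 4 EnzaR libraries. Of all genes, 8336 met the LNCaP limits, and the 63 were 0.756% of them. Chromosomes X and Y, where 4 genes met all limits, were left out, as was 1 further gene that met them. The genes were chosen by their FPKM and counts in all 8 libraries, so their difference between EnzaR and LNCaP is described below without a test.

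LNCaP is an androgen-sensitive human prostate adenocarcinoma line, labelled enzalutamide-sensitive, and EnzaR is a prostate cancer line labelled enzalutamide-resistant. Enzalutamide is an antiandrogen drug. EnzaR cells were kept in 10 uM enzalutamide and received 40 nM siRNA against YAP1 (siYAP1, 2 libraries) or a control siRNA (siNC, 2 libraries) for 48 h. LNCaP cells grew without the drug and received, for 48 h, extracellular vesicles (EVs) of EnzaR cells. The vesicle donors were depleted of YAP1 for EV-siYAP1, had COUP-TFII depleted for EV-siCII, or carried the control siRNA for EV-siNC, with 1 library each. The control library is labelled a vehicle control, with the vehicle not named, and the protocol speaks only of LNCaP cells without vesicles. All were grown in RPMI1640 with 10% FBS. YAP1 is a transcriptional co-activator of the TEAD factors and COUP-TFII an orphan nuclear receptor. The labels do not name the line from which EnzaR was derived, and whether the 2 libraries of a siRNA came from separate cultures is not stated; the spread behind each p-value may therefore be technical. Between EnzaR and LNCaP, the line, the drug in the medium and the siRNA or vesicle treatment cannot be told apart.

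Genes whose transcripts are present in one cell line and missing from a related one fall into many functional classes. In prostate epithelium, signalling receptors, ion channels and enzymes that build surface glycans set how a cell responds to its surroundings, and genes better known from neurons or muscle are often transcribed in cultured carcinoma lines. A transcript level is the balance of synthesis and decay, and a silent gene in this text is one whose counts were at or near 0, whatever the process. Promoters rich in CG dinucleotides belong mostly to widely expressed and developmental genes, and promoters poor in CG mostly to genes of restricted tissue expression.

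Promoter sequences are shown for TMEFF2, the member with the highest LNCaP level, for PLPPR3, GULP1 and TFPI, which lie close to other members, and for NMNAT2, the only member that passed the test for siYAP1 against siNC. They are RefSeq sequences of GRCh38.p14, each of 300 bases, mostly upstream of the start site, in the direction of transcription. Capitals mark CG dinucleotides.
TMEFF2 (chr2:192194884-192195183, minus strand): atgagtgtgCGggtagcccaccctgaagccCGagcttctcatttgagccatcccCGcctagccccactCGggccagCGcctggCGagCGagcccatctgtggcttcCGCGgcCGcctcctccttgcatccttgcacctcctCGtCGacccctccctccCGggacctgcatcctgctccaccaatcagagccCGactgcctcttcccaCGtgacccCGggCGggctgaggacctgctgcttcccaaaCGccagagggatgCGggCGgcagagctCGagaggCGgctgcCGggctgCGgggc
PLPPR3 (chr19:821906-822205, minus strand): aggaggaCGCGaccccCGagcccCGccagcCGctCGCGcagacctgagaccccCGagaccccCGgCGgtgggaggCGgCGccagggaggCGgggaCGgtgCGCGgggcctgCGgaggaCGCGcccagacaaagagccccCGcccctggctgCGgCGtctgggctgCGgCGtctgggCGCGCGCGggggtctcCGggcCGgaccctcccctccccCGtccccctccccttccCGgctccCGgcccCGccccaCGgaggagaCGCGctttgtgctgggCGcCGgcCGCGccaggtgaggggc
GULP1 (chr2:188291624-188291923, plus strand): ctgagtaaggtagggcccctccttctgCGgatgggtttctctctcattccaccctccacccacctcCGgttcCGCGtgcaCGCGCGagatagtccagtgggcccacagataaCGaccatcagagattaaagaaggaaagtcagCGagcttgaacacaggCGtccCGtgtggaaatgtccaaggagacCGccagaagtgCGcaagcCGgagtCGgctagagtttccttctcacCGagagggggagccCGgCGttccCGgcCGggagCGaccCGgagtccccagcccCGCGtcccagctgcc
TFPI (chr2:187554386-187554685, minus strand): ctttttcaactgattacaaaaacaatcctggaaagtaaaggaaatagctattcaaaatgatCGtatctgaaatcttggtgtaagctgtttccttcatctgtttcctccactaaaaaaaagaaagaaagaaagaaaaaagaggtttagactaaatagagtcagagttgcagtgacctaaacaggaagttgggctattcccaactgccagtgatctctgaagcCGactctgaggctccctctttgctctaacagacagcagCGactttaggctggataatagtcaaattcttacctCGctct
NMNAT2 (chr1:183418331-183418630, minus strand): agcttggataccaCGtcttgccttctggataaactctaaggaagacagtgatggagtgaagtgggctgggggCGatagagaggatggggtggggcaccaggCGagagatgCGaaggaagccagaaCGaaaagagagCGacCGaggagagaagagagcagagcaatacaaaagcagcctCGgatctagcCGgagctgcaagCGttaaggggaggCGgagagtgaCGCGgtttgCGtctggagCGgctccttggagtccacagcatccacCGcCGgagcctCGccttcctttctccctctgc
PLPPR3 had 41 CG dinucleotides in its window, TMEFF2 and GULP1 24 each, NMNAT2 18 and TFPI 4. The TFPI window had a GC content of 39.3% and that of PLPPR3 80.7%. The letters CATTCCA, a core bound by TEAD factors, occurred in the GULP1 window.

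Total counts were 16682669 to 18248939 in EnzaR libraries and 17543894 to 17964615 in LNCaP libraries. No pair of libraries agreed within sampling noise, the lowest chi-square per degree of freedom over genes being 5.03. The first siYAP1 library differed more from the siNC libraries (28.4 and 22.9) than the second did (13.7 and 13.4), and results that rest on it are given with and without it. All 10 luminal prostate markers were at 1 FPKM or more in every library, with summed values of 881 to 908 FPKM in EnzaR and 798 to 862 FPKM in LNCaP. Those sums hid opposite differences: KLK3 had 253 to 263 FPKM in EnzaR and 9.29 to 10.3 FPKM in LNCaP, while FOLH1 had 42.0 to 49.8 FPKM in EnzaR and 98.7 to 126 FPKM in LNCaP, and HOXB13 106 to 114 FPKM in EnzaR and 152 to 174 FPKM in LNCaP. Endothelial markers, nearly all VWF, summed to 0.77 to 0.91 FPKM in EnzaR and 1.1 to 1.38 FPKM in LNCaP. The basal markers summed to 0.02 to 0.12 FPKM in EnzaR and 0.08 to 0.22 FPKM in LNCaP, with 0 of 4 at 1 FPKM or more. Leukocyte markers summed to 0.15 to 0.4 FPKM in EnzaR and 0 to 0.12 FPKM in LNCaP, with PTPRC at 0 throughout. Fibroblast markers summed to 1.97 to 2.83 FPKM in EnzaR and 11.7 to 13.7 FPKM in LNCaP, of which COL1A1 gave most. The second siYAP1 library stood apart in these, with 58, 7, 6 and 6 counts of COL3A1, DCN, LUM and COL1A2, where the other 3 EnzaR libraries had 0. Neuroendocrine markers summed to 7.0 to 7.72 FPKM in EnzaR and 30.2 to 46.1 FPKM in LNCaP, of which ENO2 gave most. CHGA, a defining neuroendocrine marker, was at most 0.04 FPKM in all 8 libraries. In bulk samples fewer expressing cells and less RNA per cell cannot be told apart.

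Together the 63 genes gave 414 and 544 counts in the siYAP1 libraries and 638 and 617 counts in the siNC libraries of EnzaR. In LNCaP they gave 37634 counts with EV-siYAP1, 37732 with EV-siCII, 36999 with EV-siNC and 34355 in the control. As CPM (counts scaled to a common library total) that is 24.8 to 35.3 in EnzaR and 1950 to 2150 in LNCaP. Single genes spanned mean levels of 0 to 0.253 FPKM in EnzaR, with a median of 0.085, and 2.25 to 24.8 FPKM in LNCaP, with a median of 4.5. All 8336 genes that met the LNCaP limits had a median of 9.75 FPKM in EnzaR and 9.94 FPKM in LNCaP, so the 63 came from the lower part of the LNCaP range. In LNCaP 8 of them reached 10 FPKM, 36 had from 3 to under 10 FPKM and 19 stayed under 3 FPKM.

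Silence was graded among the 63. The pooled EnzaR level was 0 to 9.41% of the pooled LNCaP level in CPM, with a median of 1.63%, and it was under 1% for 23 genes and 5% or more for 8. Only SLITRK3 and AC037471.2 had 0 counts in all EnzaR libraries, and 17 genes had at most 10 counts over the 4. A count of 0 in an EnzaR library occurred for 13 and 8 members in siYAP1 and for 6 and 9 members in siNC, and for 0 members in any LNCaP library. GAB2, an adaptor of growth factor signalling, had the highest remainder, 9.41% (exact 95% interval 7.64 to 11.5%, counting error only).

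**Figure D1:**
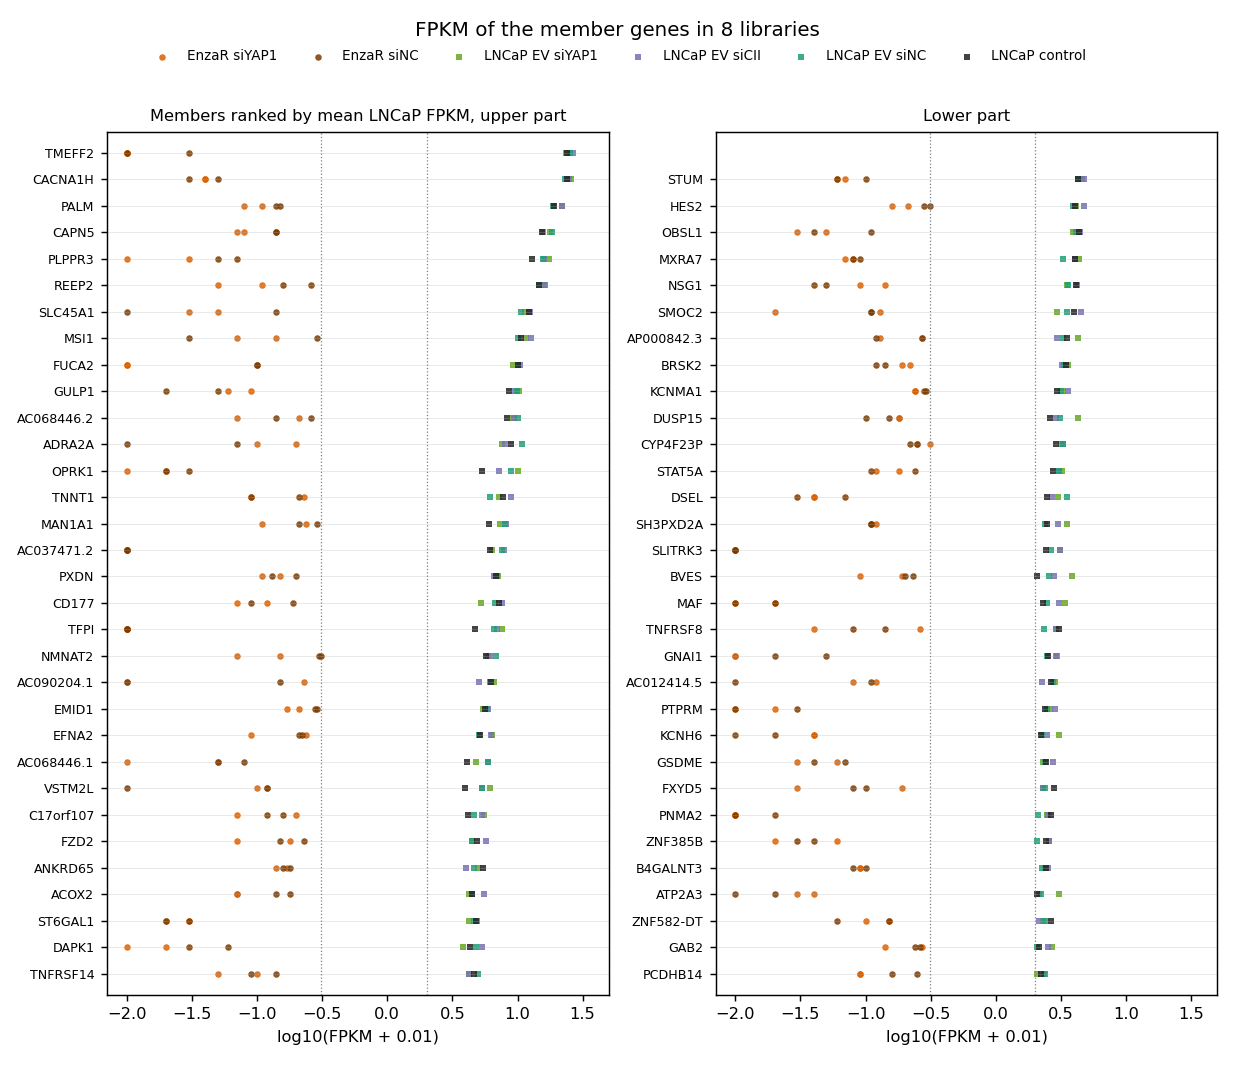
Each row is 1 of the 63 genes and each point 1 library, on a log10 axis of FPKM + 0.01, with EnzaR libraries as circles and LNCaP libraries as squares; dotted lines mark the limits of 0.3 and 2 FPKM that chose the genes. The LNCaP points of a gene lie close together (the highest over the lowest FPKM is 1.08 to 1.87), and the EnzaR points run from 0 up to the limit.

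Close to the limits the gap narrowed. Just inside the LNCaP floor, the lowest LNCaP level was 2.05 FPKM for ATP2A3 and 2.06 FPKM for GAB2 and BVES, and just outside it was 1.99 for MMP16, 1.92 for CTSO and 1.87 for PCDHGA12. At the EnzaR ceiling, HES2, NMNAT2 and CYP4F23P had a highest EnzaR level of 0.3 FPKM, and just outside were SAMD14 and PRR29 with 0.31 and PCDHB2 with 0.32 FPKM. At the count floor, AC012414.5, AC037471.2 and AC090204.1 had lowest LNCaP counts of 63, 65 and 68, and PRTN3, RAMP2 and TMEM61 fell outside with 42, 41 and 41 counts. In the sentences on single genes that follow, EnzaR values are in the order siYAP1 1, siYAP1 2, siNC 1 and siNC 2, and LNCaP values in the order EV-siYAP1, EV-siCII, EV-siNC and control. The roles by which the genes are ordered were assigned after their values were seen.

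Ion and solute transport held 6 members. CACNA1H, which encodes the pore of a low-voltage-activated T-type calcium channel, had 0.03, 0.03, 0.02 and 0.04 FPKM in EnzaR and 25.8, 24.9, 23.1 and 23.9 FPKM in LNCaP. SLC45A1, a proton-coupled sugar transporter, had 0.02, 0.04, 0.13 and 0 FPKM in EnzaR and 11.4, 12.4, 10.6 and 12.3 FPKM in LNCaP. KCNMA1, the pore of the large-conductance calcium-activated potassium channel, had 0.23, 0.23, 0.28 and 0.27 FPKM in EnzaR and 3.25, 3.56, 3.15 and 2.92 FPKM in LNCaP. These 3 genes thus differed in what was left: CACNA1H in EnzaR was at 0.122% of the LNCaP level (exact interval 0.0725 to 0.193%) and KCNMA1 at 7.76% (6.92 to 8.68%). KCNMA1 had the most EnzaR counts of the 63 genes, 334 over the 4 libraries, over an exonic length that brings them under the ceiling. KCNH6, a potassium channel of the ERG family, and ATP2A3, a calcium pump of the endoplasmic reticulum, had mean levels of 0.0175 and 0.015 FPKM in EnzaR and 2.49 and 2.35 FPKM in LNCaP. FXYD5, a regulator of the sodium pump, averaged 0.09 FPKM in EnzaR and 2.42 FPKM in LNCaP. The widely expressed calcium pump gene ATP2A2 averaged 20.9 FPKM in EnzaR and 25.6 FPKM in LNCaP. SLC45A3, a prostate relative of SLC45A1, averaged 33.5 FPKM in EnzaR and 38.5 FPKM in LNCaP. Other relatives were lower in EnzaR: SLC45A4 averaged 1.63 FPKM in EnzaR and 4.07 FPKM in LNCaP, and KCNH2, a relative of KCNH6, 0.535 FPKM in EnzaR and 3.3 FPKM in LNCaP. Ion channel genes by symbol were 45 among the genes that met the LNCaP limits, and 3 of them (6.67%) were members, beside 0.756% of all such genes; solute carriers were 154, with 1 member (0.649%).

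Receptors, their ligands and G proteins held 9 members. ADRA2A, an inhibitory adrenergic receptor, had 0.09, 0.19, 0 and 0.06 FPKM in EnzaR and 7.65, 8.04, 10.9 and 8.86 FPKM in LNCaP. OPRK1, the kappa opioid receptor, had 0, 0.01, 0.01 and 0.02 FPKM in EnzaR and 10.0, 7.15, 8.98 and 5.34 FPKM in LNCaP. GNAI1, an inhibitory alpha subunit through which such receptors signal, had 0, 0, 0.01 and 0.04 FPKM in EnzaR and 2.91, 2.88, 2.47 and 2.48 FPKM in LNCaP. So both of these receptors and 1 of the inhibitory subunits were near 0 in EnzaR. Of the related subunits, GNAI2 averaged 10.3 FPKM in EnzaR and 26.9 FPKM in LNCaP, and GNAI3 18.1 FPKM in EnzaR and 8.95 FPKM in LNCaP. ADRA2C, a relative of ADRA2A, averaged 2.19 FPKM in EnzaR and 2.76 FPKM in LNCaP. OPRK1 had the widest spread among LNCaP libraries of all 63 members, the highest FPKM being 1.87 times the lowest.

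FZD2, a Wnt receptor, averaged 0.147 FPKM in EnzaR and 4.88 FPKM in LNCaP, while its relatives FZD1 and FZD7 averaged 7.24 and 1.61 FPKM in EnzaR and 6.5 and 4.97 FPKM in LNCaP. EFNA2, a membrane-anchored ligand of Eph receptors, averaged 0.18 FPKM in EnzaR and 5.70 FPKM in LNCaP. The other ephrin-A genes looked up were expressed in both lines: EFNA1 averaged 46.2 FPKM in EnzaR and 39.6 FPKM in LNCaP, EFNA4 32.3 FPKM in EnzaR and 42 FPKM in LNCaP, and EFNA5 15.7 FPKM in EnzaR and 28.3 FPKM in LNCaP. TNFRSF14 and TNFRSF8, receptors of the tumour necrosis factor family, averaged 0.085 and 0.12 FPKM in EnzaR and 4.50 and 2.78 FPKM in LNCaP. CD177, a surface glycoprotein best known from neutrophils, averaged 0.107 FPKM in EnzaR and 6.74 FPKM in LNCaP. PTPRM, a receptor phosphatase that binds itself on neighbouring cells, had 0, 0.01, 0.02 and 0 FPKM in EnzaR and 2.60, 2.81, 2.45 and 2.36 FPKM in LNCaP. G protein-coupled receptors by symbol gave 3 members of 39 genes that met the LNCaP limits (7.69%), and receptor kinases and phosphatases 1 of 26 (3.85%), PTPRM alone. Small GTPases and their regulators, a class that holds GNAI1, gave 1 of 168 (0.595%). Shares of so few genes say little about a class. Over all genes that met these limits the share was 0.756%.

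Among intracellular signalling genes, 7 members, GULP1 and DAPK1 were the most nearly absent. GULP1, an adaptor that couples engulfment receptors to the uptake of dying cells, had 0.05, 0.08, 0.04 and 0.01 FPKM in EnzaR and 10.2, 9.51, 9.83 and 8.65 FPKM in LNCaP. DAPK1, a calmodulin-regulated kinase that promotes cell death, had 0, 0.01, 0.02 and 0.05 FPKM in EnzaR and 3.83, 5.30, 4.80 and 4.31 FPKM in LNCaP. STAT5A, a transcription factor activated by cytokine and prolactin receptors, had 0.17, 0.11, 0.23 and 0.10 FPKM in EnzaR and 3.21, 3.03, 3.02 and 2.73 FPKM in LNCaP. STAT5B averaged 7.39 FPKM in EnzaR and 8.88 FPKM in LNCaP. Of the DAPK1 relatives, DAPK3 averaged 36.4 FPKM in EnzaR and 62.1 FPKM in LNCaP, and DAPK2 1.07 FPKM in EnzaR and 1.77 FPKM in LNCaP. The remaining 4, GAB2, BRSK2 (a kinase of neuronal polarity), DUSP15 (a phosphatase) and SH3PXD2A (a scaffold of podosomes), averaged 0.217, 0.158, 0.143 and 0.103 FPKM in EnzaR and 2.34, 3.39, 3.20 and 2.81 FPKM in LNCaP. BRSK1, a relative of BRSK2, averaged 0.855 FPKM in EnzaR and 2.82 FPKM in LNCaP.

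The 6 members grouped by hand as secreted and matrix genes, a label that does not hold for each of them, included the gene with the highest LNCaP level. TMEFF2, a transmembrane protein with follistatin-like domains that is expressed in brain and prostate, had 0, 0, 0.02 and 0 FPKM in EnzaR and 23.4, 26.8, 25.4 and 23.8 FPKM in LNCaP. It had 2 EnzaR counts against 11654 LNCaP counts, 0.0171% of the LNCaP level (exact interval 0.00207 to 0.0617%). TFPI, the inhibitor of the tissue factor pathway of coagulation, was listed at 0 FPKM in all 4 EnzaR libraries, with 2 counts in all, and had 7.58, 6.98, 6.63 and 4.73 FPKM in LNCaP. TMEFF2 and TFPI were the members with the smallest remainder among those with any EnzaR count. PXDN, a peroxidase that crosslinks collagen of basement membranes, averaged 0.138 FPKM in EnzaR and 6.88 FPKM in LNCaP. The other 3, EMID1, MXRA7 and SMOC2, averaged 0.228, 0.07 and 0.0825 FPKM in EnzaR and 5.71, 3.92 and 3.74 FPKM in LNCaP. The fibroblast markers, mostly COL1A1, had 1.97 to 2.83 FPKM summed in EnzaR and 11.7 to 13.7 FPKM in LNCaP, and their part in these values was not tested. Of the 57 matrix and protease genes by symbol that met the LNCaP limits, 0 were members, since none of these 6 carries a symbol of that list.

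Glycan-modifying enzymes gave 5 members. FUCA2, a secreted fucosidase, had 0, 0, 0.09 and 0.09 FPKM in EnzaR and 9.19, 10.5, 10.0 and 10.1 FPKM in LNCaP. The lysosomal fucosidase FUCA1 averaged 11.6 FPKM in EnzaR and 11.2 FPKM in LNCaP. ST6GAL1, which adds sialic acid to the ends of N-glycans, had 0.01, 0.02, 0.02 and 0.01 FPKM in EnzaR and 4.21, 4.92, 4.64 and 4.76 FPKM in LNCaP. The EnzaR values of FUCA2 were 0, 0, 5 and 5 counts, too few for the test of siYAP1 against siNC. No difference between the siRNA groups is read from them. MAN1A1, a Golgi mannosidase of N-glycan trimming, averaged 0.203 FPKM in EnzaR and 7.39 FPKM in LNCaP, and its relative MAN1A2 1.65 FPKM in EnzaR and 1.52 FPKM in LNCaP. DSEL, a relative of dermatan sulfate epimerase, and B4GALNT3, an N-acetylgalactosaminyltransferase, averaged 0.035 and 0.08 FPKM in EnzaR and 2.90 and 2.37 FPKM in LNCaP. Glycosyl- and sulfotransferases by symbol gave 2 members of 52 genes (3.85%), beside 0.756% of all genes that met the LNCaP limits.

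A group put together by hand of genes better known from neurons held 10 members, with LNCaP means of 2.25 to 20.4 FPKM. PALM, a lipid-anchored protein of the plasma membrane, had 0.07, 0.10, 0.14 and 0.13 FPKM in EnzaR and 21.9, 21.8, 18.8 and 18.9 FPKM in LNCaP. PLPPR3, a phospholipid phosphatase-related membrane protein, had 0.02, 0, 0.06 and 0.04 FPKM in EnzaR and 17.6, 15.8, 15.6 and 12.9 FPKM in LNCaP. REEP2, a protein that shapes endoplasmic reticulum tubules, had 0.04, 0.10, 0.15 and 0.25 FPKM in EnzaR and 15.9, 16.2, 14.7 and 14.6 FPKM in LNCaP. The related genes REEP5 and REEP6 were expressed in both lines, at 30.9 and 166 FPKM in EnzaR and 16.1 and 146 FPKM in LNCaP. NMNAT2, the NAD-synthesising enzyme that maintains axons, had 0.06, 0.14, 0.29 and 0.30 FPKM in EnzaR and 5.93, 6.12, 6.78 and 5.76 FPKM in LNCaP. Its nuclear relative NMNAT1 averaged 4.21 FPKM in EnzaR and 3.03 FPKM in LNCaP. SLITRK3, a synaptic adhesion protein, was at 0 counts in all EnzaR libraries and had 3.10, 3.09, 2.65 and 2.41 FPKM in LNCaP; 3 counts would allow 0.307% of the LNCaP level. PNMA2, an antigen of paraneoplastic disease, had 1 EnzaR count in all and averaged 2.42 FPKM in LNCaP. VSTM2L, STUM, NSG1 and PCDHB14 averaged 0.0775, 0.0625, 0.07 and 0.138 FPKM in EnzaR and 5.16, 4.45, 3.83 and 2.25 FPKM in LNCaP. Among the neuroendocrine markers only ENO2 was lower, with 6.43 to 7.08 FPKM in EnzaR and 29.9 to 45.7 FPKM in LNCaP; SYP had 0.44 to 0.77 FPKM in EnzaR and 0.30 to 0.42 FPKM in LNCaP, and NCAM1, CHGA and INSM1 were near 0 in both. Their part in these values was not tested. Neuronal adhesion and vesicle genes by symbol gave 1 member of 37 (2.7%), SLITRK3, and cadherins and protocadherins 1 of 13 (7.69%), PCDHB14. All genes that met the LNCaP limits gave 0.756%, and a single gene makes each of these class shares. PCDHB14 had low neighbours of its own family that the ceiling left out in at least 1 library: PCDHB15, 19.3 kb away, averaged 0.235 FPKM in EnzaR and 2.92 FPKM in LNCaP, PCDHB5, 85.2 kb away, 0.297 FPKM in EnzaR and 14.4 FPKM in LNCaP, and PCDHB2, 126 kb away, 0.182 FPKM in EnzaR and 6.01 FPKM in LNCaP. TAF7, 92.2 kb away in the same stretch of chromosome 5, averaged 26.7 FPKM in EnzaR and 19.8 FPKM in LNCaP.

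The 3 members grouped by hand under striated muscle were TNNT1, BVES and OBSL1. TNNT1, slow skeletal troponin T, had 0.22, 0.08, 0.08 and 0.20 FPKM in EnzaR and 7.14, 8.85, 6.10 and 7.72 FPKM in LNCaP. BVES, a membrane protein that binds cyclic AMP, had 0.08, 0.18, 0.19 and 0.22 FPKM in EnzaR and 3.84, 2.80, 2.53 and 2.06 FPKM in LNCaP, with the EV-siYAP1 library highest. OBSL1, a cytoskeletal adaptor, averaged 0.0475 FPKM in EnzaR and 4.18 FPKM in LNCaP.

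Of the 4 transcription and RNA-binding factors, MSI1 had the highest LNCaP level. MSI1, a translational regulator of neural stem cells, had 0.06, 0.13, 0.02 and 0.28 FPKM in EnzaR and 11.5, 12.7, 10.1 and 10.6 FPKM in LNCaP. Its relative MSI2 averaged 3.54 FPKM in EnzaR and 3.91 FPKM in LNCaP. MAF, a basic leucine zipper factor that is also on a list of androgen-responsive prostate genes, had 0, 0.01, 0 and 0.01 FPKM in EnzaR and 3.39, 3.06, 2.45 and 2.30 FPKM in LNCaP. Of the 26 androgen-responsive genes that met the LNCaP limits MAF was the only member (3.85%, beside 0.756% of all genes that met them). KLK3, the prostate-specific antigen gene on the same list, had 256, 263, 253 and 257 FPKM in EnzaR and 9.95, 9.54, 9.29 and 10.3 FPKM in LNCaP. So the prostate gene list was not silent as a whole, and KLK3 was the higher in EnzaR. MAFG, a relative of MAF, averaged 15.6 FPKM in EnzaR and 14.4 FPKM in LNCaP. HES2, a repressor of the Hairy family, and ZNF385B averaged 0.23 and 0.0275 FPKM in EnzaR and 4.21 and 2.40 FPKM in LNCaP.

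CAPN5, a calcium-dependent protease, had 0.07, 0.06, 0.13 and 0.13 FPKM in EnzaR and 17.8, 15.7, 18.4 and 15.5 FPKM in LNCaP. GSDME, whose cleaved form makes pores in the membrane of dying cells, averaged 0.04 FPKM in EnzaR and 2.45 FPKM in LNCaP. Its relatives GSDMD and GSDMB averaged 0.462 and 0.963 FPKM in EnzaR and 1.65 and 2.66 FPKM in LNCaP. ACOX2, a peroxisomal oxidase of branched-chain fatty acids and bile acid intermediates, averaged 0.105 FPKM in EnzaR and 4.67 FPKM in LNCaP. Over all roles, 51 relatives of members were looked up, a list chosen after the members were known. Of these, 30 averaged 2 FPKM or more in EnzaR and 33 in LNCaP, 28 of them in both lines. Relatives near 0 in both lines included TMEFF1, TFPI2, ST6GAL2 and OPRM1. All of these averaged 0 FPKM in EnzaR, with 0.025, 0.085, 0 and 0 FPKM in LNCaP.

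Noncoding RNAs and pseudogenes gave 8 members, and 2 members, ANKRD65 and C17orf107, had no role assigned. By biotype, 55 members were protein-coding (87.3%, beside 91.0% of genes that met the LNCaP limits) and 5 were lincRNAs (7.94%, beside 1.72%). Antisense RNAs gave 0 members, beside 2.35% of genes that met the limits. Among the lincRNAs, AC012414.5 and AC068446.2 lay in the same run on chromosome 15. Long noncoding and antisense RNA by symbol, which took in some pseudogenes, gave 6 members of 407 genes (1.47%), beside 0.756% of all genes that met the limits. AC068446.2 had the highest level of the 8, 0.06, 0.20, 0.13 and 0.25 FPKM in EnzaR and 9.23, 9.44, 10.0 and 8.33 FPKM in LNCaP. AC037471.2 had 0 counts in EnzaR, where 3 counts would allow 1.01% of the LNCaP level, and 6.39, 7.81, 7.63 and 6.16 FPKM in LNCaP. These transcripts rested on few counts, 63 to 389 counts per LNCaP library for the 4 on chromosome 15. AC090204.1, AP000842.3, ZNF582-DT (a transcript divergent to a zinc finger gene) and the pseudogene CYP4F23P averaged 0.09, 0.188, 0.105 and 0.247 FPKM in EnzaR and 6.03, 3.48, 2.35 and 3.14 FPKM in LNCaP. Whether counting used strand is not given in the sources used here, and transcripts that overlap on opposite strands cannot be told apart, and reads of near-identical copies of pseudogenes may be divided between them.

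The members lay on 19 chromosomes, with 8 on chromosome 19, 7 on chromosome 1 and 6 each on chromosomes 2 and 17. As shares of the genes that met the LNCaP limits there, these were 1.14% on chromosome 19, 0.759% on chromosome 1, 1.36% on chromosome 2 and 0.942% on chromosome 17; the highest shares were 1.82% on chromosome 18, with 2 members, and 1.47% on chromosome 15, with 4. In the hg19 coordinates of the deposited table, 11 members (17.5%) lay within 1 Mb of another member, in 4 places. Of the 806 genes that met the LNCaP limits and lay within 1 Mb of a member, these 11 were 1.36%, beside 0.756% of all such genes.

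The first place was a run of 4 transcripts on chromosome 15. AC012414.5 (20935076 to 20961512), AC037471.2 (21098712 to 21099309), AC068446.1 (21936560 to 21938111) and AC068446.2 (21941147 to 21968151) lay on the minus strand with gaps of 137, 837 and 3.04 kb, and no other gene that met the LNCaP limits lay between them. AC068446.1 had 0, 0.04, 0.04 and 0.07 FPKM in EnzaR and 4.77, 5.91, 5.95 and 4.09 FPKM in LNCaP. AC012414.5 had 0.11, 0.07, 0.10 and 0 FPKM in EnzaR and 2.81, 2.24, 2.71 and 2.65 FPKM in LNCaP. All 4 were thus near or at 0 in EnzaR across a stretch that held no other transcript of this level in LNCaP.

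The second place was on chromosome 2, where TFPI (188328957 to 188430487, minus strand) and GULP1 (189156396 to 189460653, plus strand) lay 726 kb apart with no gene that met the LNCaP limits between them. TFPI and GULP1 had 4 and 24 CG dinucleotides in the windows printed above. On the far side of TFPI the next such gene, ZC3H15, lay 955 kb away and averaged 11.6 FPKM in EnzaR and 4.2 FPKM in LNCaP. TMEFF2 lay on the same chromosome (192813769 to 193060435), more than 1 Mb from any other member.

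The third place was on chromosome 19, where PALM (708953 to 748329), PLPPR3 (812518 to 821967) and EFNA2 (1286153 to 1301430) lay among many expressed genes. PTBP1, a splicing regulator that lies between PALM and PLPPR3 and ends 0.191 kb from PLPPR3, averaged 89 FPKM in EnzaR and 59.8 FPKM in LNCaP. Between PLPPR3 and EFNA2, 464 kb apart, 19 genes met the LNCaP limits and 0 of them were members. Among these 19, CFD averaged 5.75 FPKM in EnzaR and 50.2 FPKM in LNCaP, MED16 47.2 FPKM in EnzaR and 98.2 FPKM in LNCaP, and WDR18 65.9 FPKM in EnzaR and 64.6 FPKM in LNCaP. Outside the stretch, on the other side of PALM, HCN2 at 91.8 kb averaged 0.412 FPKM in EnzaR and 4.16 FPKM in LNCaP, and SHC2 at 248 kb 0.493 FPKM in EnzaR and 19.3 FPKM in LNCaP. These genes were named after their values were seen. The 3 members thus lay among genes of widely differing EnzaR levels. The last place, on chromosome 17, held ATP2A3 and C17orf107, 935 kb apart, with 15 genes that met the LNCaP limits between them and 0 members among those.

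**Figure D2:**
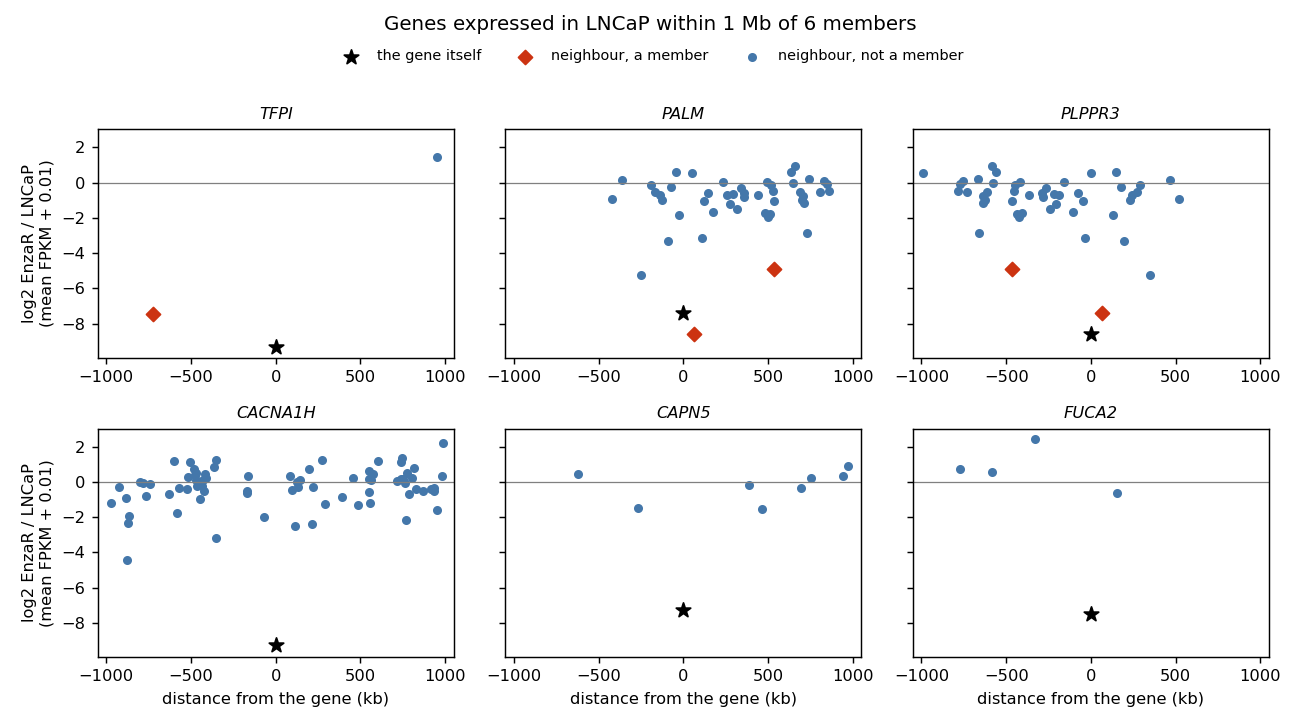
Panels show genes that met the LNCaP limits within 1 Mb of TFPI, PALM, PLPPR3, CACNA1H, CAPN5 and FUCA2, with distance in kb on the x axis (negative is upstream in the gene's direction of transcription) and the log2 ratio of EnzaR over LNCaP mean FPKM (0.01 added) on the y axis; the star is the gene itself, diamonds are other members and dots non-members. The stars and diamonds lie far below 0, while most dots lie near 0, as PTBP1 does at 89 FPKM in EnzaR against 59.8 FPKM in LNCaP.

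For most members the neighbourhood was expressed. Of the 63, 61 had another gene that met the LNCaP limits within 1 Mb, and the nearest one kept 50% or more of its LNCaP level in EnzaR for 41 of the 61 (67.2%) and was itself a member for 6 (9.84%). The 795 non-members within 1 Mb of a member had a median log2 ratio of EnzaR over LNCaP of -0.17, beside -0.11 for all 8273 non-members. Of these 795, 44 (5.53%) had under 25% of their LNCaP level in EnzaR, beside 380 of 8273 (4.59%). Near CACNA1H, BAIAP3 averaged 1.89 FPKM in EnzaR and 10.7 FPKM in LNCaP. Near OPRK1, the transcript AC131902.1, 144 kb away, averaged 0.17 FPKM in EnzaR, above the ceiling in at least 1 library, and 23.5 FPKM in LNCaP. Near SLITRK3, BCHE, which encodes butyrylcholinesterase, 576 kb away, averaged 0.493 FPKM in EnzaR and 5.09 FPKM in LNCaP. These neighbours were named after their values were seen.

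Promoter windows from RefSeq (GRCh38.p14) were matched for 40 of the 63 members, by symbol. They held 3 to 58 CG dinucleotides with a median of 27, beside a median of 28 for the 6453 matched genes that met the LNCaP limits and 14 for all 27305 windows. At least 20 CG dinucleotides occurred in 26 of the 40 (65.0%), beside 77.1% of the genes that met the LNCaP limits and 41.2% of all windows. The most CG-rich were GAB2 with 58, KCNMA1 with 54 and PTPRM with 50, and the poorest were STAT5A with 3 and TFPI with 4. A gene with much residual EnzaR signal (GAB2, KCNMA1) and one with hardly any (PTPRM, 5 counts) thus stood side by side at the CG-rich end. The members' median was thus close to that of genes that met the LNCaP limits, with fewer windows of at least 20 CG dinucleotides (65.0% beside 77.1%). This difference was not tested.

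**Figure D3:**
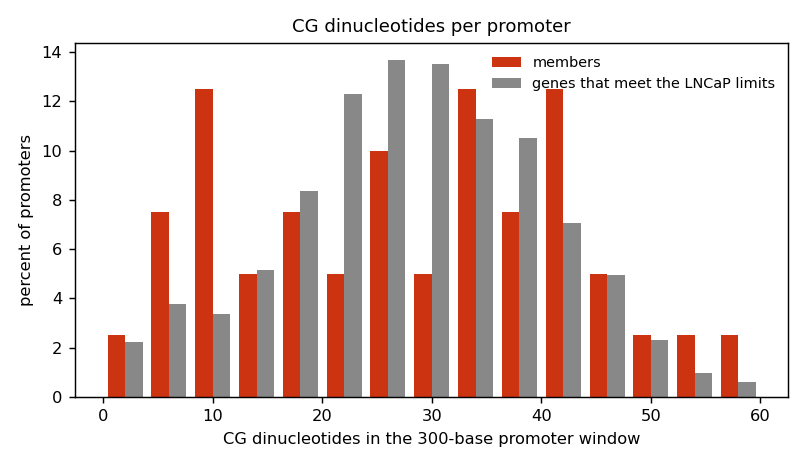
The x axis is the number of CG dinucleotides in the 300-base promoter window and the y axis the percent of promoters, for the 40 matched members and the 6453 matched genes that met the LNCaP limits. The medians are 27 and 28, and the members spread from 3 to 58.

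The study asked which genes YAP1 controls in EnzaR cells, and siYAP1 was compared with siNC over the whole table with edgeR's quasi-likelihood test and Benjamini-Hochberg adjustment. YAP1 itself had 5.79 and 7.07 CPM (scaled by TMM) in siYAP1 and 57.4 and 47.6 CPM in siNC, a log2 fold change of -3.02 (SE 0.154, edgeR adjusted p = 2.07e-10). The test covered 14948 genes and called 1802 (12.1%), with 872 (5.83%) higher in siYAP1 and 930 (6.22%) lower. Without the first siYAP1 library 15 genes were higher and 11 lower. Of the 63 members, 48 had too few counts to be tested and 15 were tested, and 1 of these, NMNAT2, was lower and 0 were higher. The EnzaR ceiling that chose the members held both siRNA groups at low levels, so no share of the tested members is read against the background.

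NMNAT2 had 7 and 18 counts in siYAP1 and 37 and 39 counts in siNC, or 0.445 and 1.01 CPM in siYAP1 and 1.95 and 2.09 CPM in siNC. The groups did not overlap, which says little with 2 libraries each, and how many of all genes did so was not counted. The log2 fold change was -1.44 (SE 0.432, edgeR adjusted p = 0.0355), and the adjusted p ran from 0.0093 to 0.298 over 10 alternatives. The call was lost without the first siYAP1 library (edgeR adjusted p = 0.298), without the first siNC library (0.0969) and without the second (0.136), and was kept without the second siYAP1 library (0.0327). Even in siNC, NMNAT2 was far below the LNCaP libraries, where it had 729 to 873 counts. Its relative NMNAT1 was described above.

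The other 14 tested members had log2 fold changes of -0.92 to 0.73 and adjusted p-values of 0.275 to 0.934. KCNMA1, the best counted, had 71 and 78 counts in siYAP1 and 94 and 91 counts in siNC, with a log2 fold change of -0.15 (SE 0.226, edgeR adjusted p = 0.707). CAPN5 had 7 and 7 counts in siYAP1 and 15 and 15 counts in siNC, with -0.92 (SE 0.559, adjusted p = 0.284), and HES2 had 18 and 15 counts in siYAP1 and 26 and 30 counts in siNC, with -0.59 (SE 0.414, adjusted p = 0.363). BRSK2 had the opposite sign, with 24 and 22 counts in siYAP1 and 14 and 17 counts in siNC and 0.73 (SE 0.435, adjusted p = 0.275). CAPN5 and PALM met the count filter only through their siNC libraries, and DUSP15 only through its siYAP1 libraries. NMNAT2, BVES, MAN1A1 and MXRA7 would not have met it through the siYAP1 libraries alone. In the first of those they had 7, 8, 9 and 9 counts. The filter thus bears on the sign of the fold changes of all these genes, the called NMNAT2 included. For none of the 63 did siYAP1 bring an EnzaR library above 0.3 FPKM, which the rule itself fixed.

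**Figure D4:**
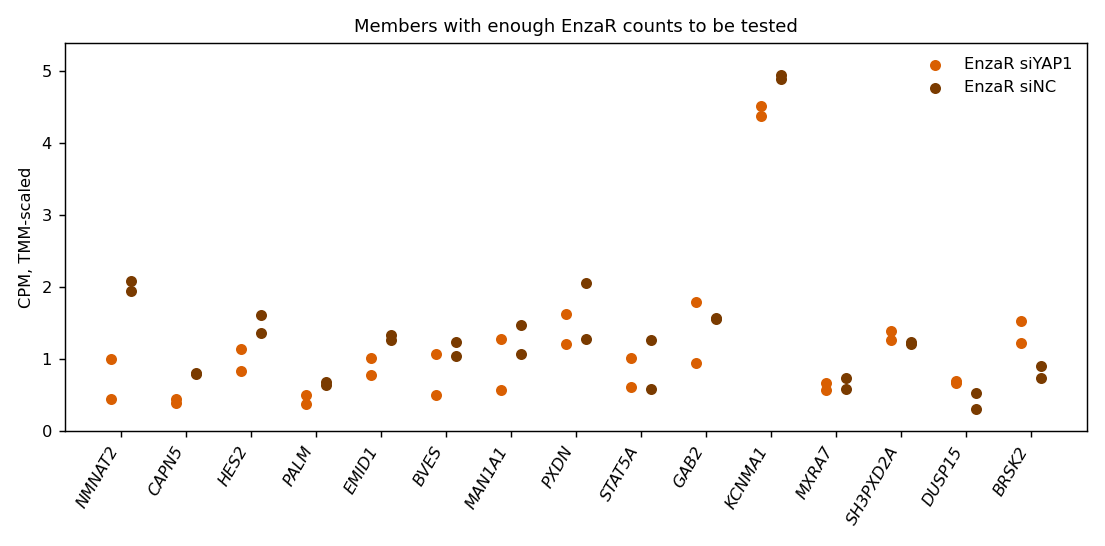
The y axis is CPM scaled by TMM and each point 1 EnzaR library, for the 15 members with enough counts to be tested, with siYAP1 left of siNC and genes ordered by fold change. NMNAT2 at the left has 0.445 and 1.01 CPM in siYAP1 and 1.95 and 2.09 CPM in siNC, and KCNMA1 has the highest values.

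Vesicles of EnzaR cells were given to LNCaP cells to see what they change, and for the 63 genes the question is whether LNCaP levels moved. Each LNCaP group was 1 library, so there is no replicate check and no test, and 95% intervals are exact binomial ones that cover counting error only. By the rule the members had at least 2 FPKM in each of these libraries, while the genes set beside them needed only 50 counts. Members and all genes are therefore not matched in the comparisons below. For EV-siNC against control, 1 member was higher by more than 1.5-fold and 0 were lower, beside 3.77% higher and 0.587% lower (4.36% either way) of the 11580 genes with 50 counts or more in every LNCaP library. That gene was OPRK1, with 924 counts (50.8 CPM) under EV-siNC and 540 counts (31.6 CPM) in the control, a log2 ratio of 0.68 (interval 0.53 to 0.84). TFPI had 76.7 CPM under EV-siNC and 57.2 CPM in the control, a log2 ratio of 0.42 (0.30 to 0.54). At the other end TNFRSF8 had 8.57 CPM under EV-siNC and 11.8 CPM in the control, a ratio of -0.46 (-0.77 to -0.15). The median log2 ratio of the 63 was -0.06 and that of all 11580 genes -0.02, and 26 members (41.3%) were above 0, beside 47.3% of all genes. Across genes this ratio went with GC content (Spearman's rho -0.54 over the 11398 genes with a GC value, all from the same libraries, as a description), and the members had a median GC content of 54.5% against 50% for all. With GC content and gene length regressed out, the members' median was 0.016, on the other side of 0.

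For EV-siYAP1 against EV-siNC, BVES was higher by more than 1.5-fold and 0 members were lower, beside 0.829% higher and 0.699% lower (1.53% either way) of all genes. BVES had 391 counts (22.0 CPM) under EV-siYAP1 and 264 counts (14.5 CPM) under EV-siNC, a log2 ratio of 0.60 (interval 0.37 to 0.83). SH3PXD2A had 42.6 CPM under EV-siYAP1 and 29.3 CPM under EV-siNC, a ratio of 0.54 (0.38 to 0.70). ADRA2A had the lowest ratio, with 29.2 CPM under EV-siYAP1 and 41.6 CPM under EV-siNC, -0.51 (-0.67 to -0.35). The members' median was 0.09 and that of all genes 0.01, and 38 members (60.3%) were above 0, beside 51.1% of all genes. The interval excluded 0 on the higher side for 17 members (27%, beside 17.3% of all genes) and on the lower side for 7 (11.1%, beside 15.7%).

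For EV-siCII against EV-siNC, 0 members passed 1.5-fold in either direction, beside 0.561% higher and 0.743% lower (1.3% either way) of all genes. TNNT1 had the highest ratio, with 19.1 CPM under EV-siCII and 13.1 CPM under EV-siNC, 0.54 (0.30 to 0.79). ADRA2A had the lowest, with 30.9 CPM under EV-siCII and 41.6 CPM under EV-siNC, -0.43 (-0.59 to -0.27). The members' median was 0.12 and that of all genes 0.00, and 43 members (68.3%) were above 0, beside 50.8% of all genes. The interval excluded 0 on the higher side for 22 members (34.9%, beside 15.6%) and on the lower side for 5 (7.94%, beside 12.8%). Across genes the ratio of EV-siCII over EV-siNC had a Spearman's rho of 0.2 with GC content. With GC content and gene length regressed out, the members' median was 0.109. The comparisons of EV-siYAP1, EV-siCII and control all share the 1 EV-siNC library, so the members' medians and shares are not independent of each other. The low ADRA2A ratios of EV-siYAP1 and EV-siCII rest on the same 757 counts under EV-siNC, beside 519 counts under EV-siYAP1, 546 under EV-siCII and 605 in the control.

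**Figure D5:**
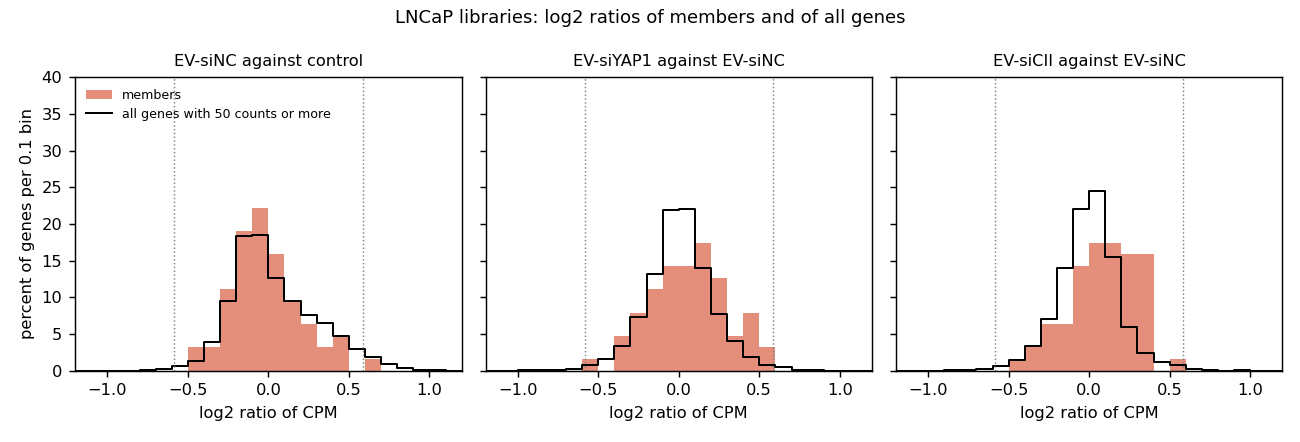
Each panel shows 1 comparison of LNCaP libraries, with the log2 ratio of CPM on the x axis and the percent of genes per bin of 0.1 on the y axis, as bars for the 63 members and as a line for the 11580 genes with 50 counts or more; dotted lines mark 1.5-fold. The members' medians are -0.06, 0.09 and 0.12 from left to right, and nearly all members lie inside the dotted lines.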

How the data were processed

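RNA of 4 EnzaR and 4 LNCaP libraries was analysed in the groups that the labels give. The authors deposited 1 table of 57905 Ensembl genes with raw counts, FPKM and hg19 coordinates. The submitters' processing notes name these tools with no roles: HISAT2 2.0.1 and HTSeq 0.6.1, cutadapt 1.9.1, and DESeq2. Neither the annotation release nor the strand setting is given in the sources used here. All 463240 deposited FPKM values could be rebuilt from counts, exonic lengths and totals within 0.0051. Symbols came from a reference table for 57 members and from GENCODE 29 for 6.

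For siYAP1 against siNC the raw counts were fitted in R 4.3.3 with edgeR 4.0.16 (TMM, filterByExpr, robust quasi-likelihood test), with a threshold of 0.05 on Benjamini-Hochberg adjusted p; DESeq2 1.42.0 and limma 3.58.1 were alternatives. LNCaP ratios are of TMM-scaled CPM with a prior count of 2, and mgcv 1.9.3 was used to regress out GC content and length. Scripts were tested on simulated data. The members, gene lists, limits and tests were chosen with earlier results of these data known. Named genes were members with the highest LNCaP levels, lowest EnzaR counts, in a gene class, near another member, past a threshold or at a limit; the remaining members, relatives and neighbours were named after their values were seen. Chromosomes X and Y were left out, and some related or neighbouring genes are not reported here.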

Additional observations from a re-analysis of the deposited data

How the results depend on the processing

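The number of members depended on the limits. It was 143 with an LNCaP floor of 1 FPKM and 22 with a floor of 5, and 25 with an EnzaR ceiling of 0.1 FPKM and 106 with a ceiling of 0.5. Without the count floor it was 69, and leaving out each library in turn gave 63 to 72. Members with another member nearby numbered 4 within 0.1 Mb, 19 within 2 Mb and 29 with the ceiling of 0.5 FPKM, against 11, and within 0.1 Mb they were 3.05% of the genes near a member. For siYAP1 against siNC, DESeq2 gave 453 lower genes, scaling by library totals alone 291 higher and 1416 lower, and leaving out each library 15 to 940 higher and 11 to 829 lower, with 15 and 11 without the first siYAP1 library. In each such fit the lone library was assumed to vary like the others. Members called were 0 to 1 without a library, and 3 when all 8 libraries entered the fit. There all 63 passed the filter, through the LNCaP counts for which they were chosen, so the added calls for FUCA2 and ADRA2A rest on EnzaR counts too low for the filter of the 4 EnzaR libraries. With replicate number as a block, 564 genes were higher and 845 lower, with 1 member called; same-numbered libraries did not deviate together (r = -0.08), so the numbers were not taken as pairs. DESeq2 gave no adjusted p for the members. At 2-fold, 0 members were higher in EV-siNC against control and 0 in EV-siYAP1 against EV-siNC. The cause of these shifts was not tested, other than the fewer genes or libraries that a setting leaves by construction. Counts of 0 to 10 over 4 EnzaR libraries, for 17 members, limit any statement on how silent these genes were, and with 1 library per LNCaP group no ratio there has a replicate check.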

Other observations

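Short sequence motifs were counted on both strands of the 40 matched promoter windows, as a description of letters that says nothing of binding. TATAAA, the core of the TATA box, occurred in 3 (7.5%), those of ADRA2A, MAF and TNNT1, beside 4.42% of genes that met the LNCaP limits and 12% of all windows. AGAACA, a hexamer of steroid receptor sites, occurred in 6 (15%), those of ANKRD65, FUCA2, MXRA7, PCDHB14, SLITRK3 and STAT5A, beside 8.24% and 14.9%. TGTTTAC, a forkhead core, occurred in 2 (5.0%, ANKRD65 and SLITRK3), beside 2.03% and 3.41%. CATTCCA, a TEAD core, occurred in 2 (5.0%, GULP1 and TNFRSF14), beside 2.19% and 4.2%. TGACGTCA, the cyclic AMP response element, occurred in 2 (5.0%, MAF and SLC45A1), beside 3.75% and 1.98%. GGGCGG, the GC box, occurred in 30 (75.0%), beside 74.8% and 44.6%.

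The members' exonic length had a median of 4900 bases and their genomic span a median of 27900 bases, beside 4240 and 22800 bases for all genes that met the LNCaP limits. The highest over the lowest LNCaP FPKM had a median of 1.25 in members and 1.18 in all such genes. BVES, with a ratio of 1.86, and OPRK1, with 1.87, varied most among the LNCaP libraries. By contrast, PXDN and EMID1 varied by 1.08 only. Among gene classes defined by symbol, 16 of 20 had a member and 26 members fell in at least 1 class. Of classes not given above, C2H2 zinc finger genes gave 2 of 192 (1.04%) and redox and lipid enzymes 1 of 91 (1.1%). Cytoskeleton and motor genes gave 1 of 87 (1.15%) and developmental transcription factors 1 of 86 (1.16%). Secreted ligands gave 1 of 52 (1.92%) and interferon and antigen presentation genes 1 of 39 (2.56%). Keratin and junction genes (22 met the LNCaP limits), ABC transporters (15) and cancer-testis genes (15) had 0 members. The share over all genes that met the limits was 0.756%, so 0 members in classes this small says little about them.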
